A study of Mus musculus with 6 samples.

Results

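A set of 10 genes of the DNA methylation cycle and of the metabolism that feeds it was followed in mouse bone-marrow-derived macrophages: the TET dioxygenases Tet1, Tet2 and Tet3, the glycosylase Tdg, the DNA methyltransferases Dnmt1, Dnmt3a and Dnmt3b, the isocitrate dehydrogenases Idh1 and Idh2, and the glycosyltransferase Ogt. They were chosen by symbol, and each matched 1 of the 54532 rows of the deposited count table. The study sequenced total RNA from 6 libraries of macrophages treated with monosodium urate (MSU), the crystal of gout. Of these, 3 carry the label Tet2 knockout with MSU and 3 the label wild-type with MSU. MSU treatment was shared by both groups, so the comparison concerns the genotype label within treated cells. The Tet2 allele, any promoter or Cre that drives it, the age and sex of the mice, the MSU dose and the exposure time are not given in the sources used here. The labels also do not say that the 3 libraries of a group derive from different mice or cultures. The p-values therefore rest on variation among the sequenced libraries alone, part or all of which may be technical.

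DNMT enzymes place a methyl group on cytosine in CpG dinucleotides: Dnmt3a and Dnmt3b set new marks, and Dnmt1 copies marks to the daughter strand after replication. TET enzymes oxidise that methyl group stepwise to hydroxymethyl, formyl and carboxyl forms, and Tdg cuts out the latter forms so that base excision repair can restore plain cytosine. TET enzymes need iron, oxygen and 2-oxoglutarate, which Idh1 makes in the cytosol and Idh2 in mitochondria, and succinate, fumarate and 2-hydroxyglutarate hold them back. Ogt adds O-linked N-acetylglucosamine (O-GlcNAc) to proteins and binds TET proteins on chromatin. Somatic TET2 mutations are frequent in clonal hematopoiesis, and in macrophages TET2 has been tied to the shutting down of inflammatory cytokine genes.

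Total counts ran from 11997104 to 14481843 per library, and libraries within a group correlated across genes with Pearson r of 0.9961 to 0.9968. Wild-type replicate 2 had the lowest total, and its counts differed from those of the other wild-type libraries by 2.28 and 2.30 times the variance of sampling noise, against 1.56 to 1.71 for the other pairs within a group. Macrophage markers were abundant, with 5 of 9 tested members higher and 3 lower in the libraries labelled knockout and only Cd163, at 0.388 and 0.774 CPM, below the filter on low counts. Connective tissue markers were also abundant, with 1 of 10 higher and 6 lower and a summed level of 7587 to 8100 CPM in the wild-type libraries and 7085 to 7265 CPM in those labelled knockout. By the same test, described below, 21.6% of all tested genes were higher and 19.2% lower. Lymphocyte markers summed to 3.63 to 4.24 CPM and 11.7 to 12.7 CPM, nearly all of it Cd4, while Cd3g was at 0 in all 6 libraries and Cd3e had 1 read in all. Neutrophil markers summed to no more than 2.04 CPM in any library, with Ly6g and Retnlg at 0. Reads on mitochondrial genes made up 0.240 to 0.275% of the wild-type libraries and 0.349 to 0.366% of those labelled knockout. The part of this share, and of connective tissue or other cells, in the values below was not tested, and in such bulk samples fewer cells of a type and less RNA per cell cannot be told apart.

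RefSeq promoter sequences (build GRCm38.p6, the same assembly as mm10) were matched for all 10 genes. The 250 bases before the annotated start are shown for Tet2, the labelled target, for Tet3, the TET gene with most reads, and for Dnmt3a and Ogt, written 5′ to 3′ along the gene with every CpG, the dinucleotide that these enzymes act on, in capitals. The Tet2 stretch is chr3:133544391-133544640 (minus strand) and lies inside the gene span of the deposited table. The Tet3 stretch is chr6:83441679-83441928 (minus strand), also inside the gene span, and reaches into the noncoding gene B230319C09Rik on the other strand. The Dnmt3a stretch is chr12:3806730-3806979 (plus strand), before the first of 3 RefSeq starts but inside the gene span too. The Ogt stretch is chrX:101639801-101640050 (plus strand), before the first of 2 starts and outside the gene span.
Tet2: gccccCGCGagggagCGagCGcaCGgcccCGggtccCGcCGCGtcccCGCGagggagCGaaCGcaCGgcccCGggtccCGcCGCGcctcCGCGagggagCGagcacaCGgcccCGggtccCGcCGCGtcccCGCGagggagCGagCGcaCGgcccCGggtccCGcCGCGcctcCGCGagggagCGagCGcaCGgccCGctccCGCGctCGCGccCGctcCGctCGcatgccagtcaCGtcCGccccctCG
Tet3: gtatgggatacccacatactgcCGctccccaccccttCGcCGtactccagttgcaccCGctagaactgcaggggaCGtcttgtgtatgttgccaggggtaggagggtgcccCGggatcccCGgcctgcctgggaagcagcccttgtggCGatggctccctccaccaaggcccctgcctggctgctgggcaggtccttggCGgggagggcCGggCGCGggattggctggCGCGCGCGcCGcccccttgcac
Dnmt3a: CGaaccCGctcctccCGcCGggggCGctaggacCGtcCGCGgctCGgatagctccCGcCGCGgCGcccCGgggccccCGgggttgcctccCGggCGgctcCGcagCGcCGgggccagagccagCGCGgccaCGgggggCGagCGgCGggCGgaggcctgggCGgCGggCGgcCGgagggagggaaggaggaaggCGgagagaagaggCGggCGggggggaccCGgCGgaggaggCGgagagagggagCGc
Ogt: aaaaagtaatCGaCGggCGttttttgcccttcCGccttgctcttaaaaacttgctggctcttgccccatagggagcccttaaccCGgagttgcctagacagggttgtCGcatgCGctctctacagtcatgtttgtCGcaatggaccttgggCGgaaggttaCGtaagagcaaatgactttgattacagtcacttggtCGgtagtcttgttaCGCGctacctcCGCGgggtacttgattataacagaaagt

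The Tet2 stretch held 51 CpG sites, and 99.9% of 32851 RefSeq promoter entries of this length held fewer. A repeat of 25 bases, cCGCGagggagCGagCGcaCGgccc, occurred 3 times in it. The Dnmt3a stretch held 38 CpG sites (98.1% of entries held fewer), the Tet3 stretch 17 (76.5%) and the Ogt stretch 15 (72.7%). Across all starts of the 10 genes the count ran from 2, at the most upstream of 3 Dnmt1 starts, to the 51 of Tet2, against a median of 6 over all entries. Of other motifs, searched on both strands, the GC box GGGCGG (in 32.7% of entries; it holds a CpG itself) was present before at least 1 start of every gene but Tdg. The cyclic AMP element TGACGTCA (1.55% of entries, with a CpG inside) was found before Tdg alone of the 10, and the E2F motif TTTCCCGC (0.895% of entries, also with a CpG inside) before none. These matches are descriptions of the letters in each window, and methylation was not measured here.

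Levels are CPM, read counts set to a common library total with TMM scaling, and differences are log2 values of the libraries labelled Tet2 knockout minus those labelled wild-type, from edgeR's quasi-likelihood test with p-values adjusted over the 13175 genes tested. A gene counts as called below an adjusted p of 0.05. In these data 40.9% of tested genes were called, 21.6% higher and 19.2% lower, and in 47.8% the 3 libraries of a label lay wholly above or below the other 3. Of the 10 genes 9 passed the filter on low counts and 7 of those were called, all of them higher: Tet2, Tet3, Dnmt1, Dnmt3a, Idh1, Idh2 and Ogt. The same 7 were the ones whose libraries did not overlap between labels. The median difference over the 9 was 0.26, against -0.0031 over all tested genes. Every difference was modest, from -0.09 to 0.42 among the 9. The calls rest on a small spread between libraries, and with an assumed biological coefficient of variation of 0.1 (14.3% of tested genes called) only Idh1 passed.

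**Figure D1:**
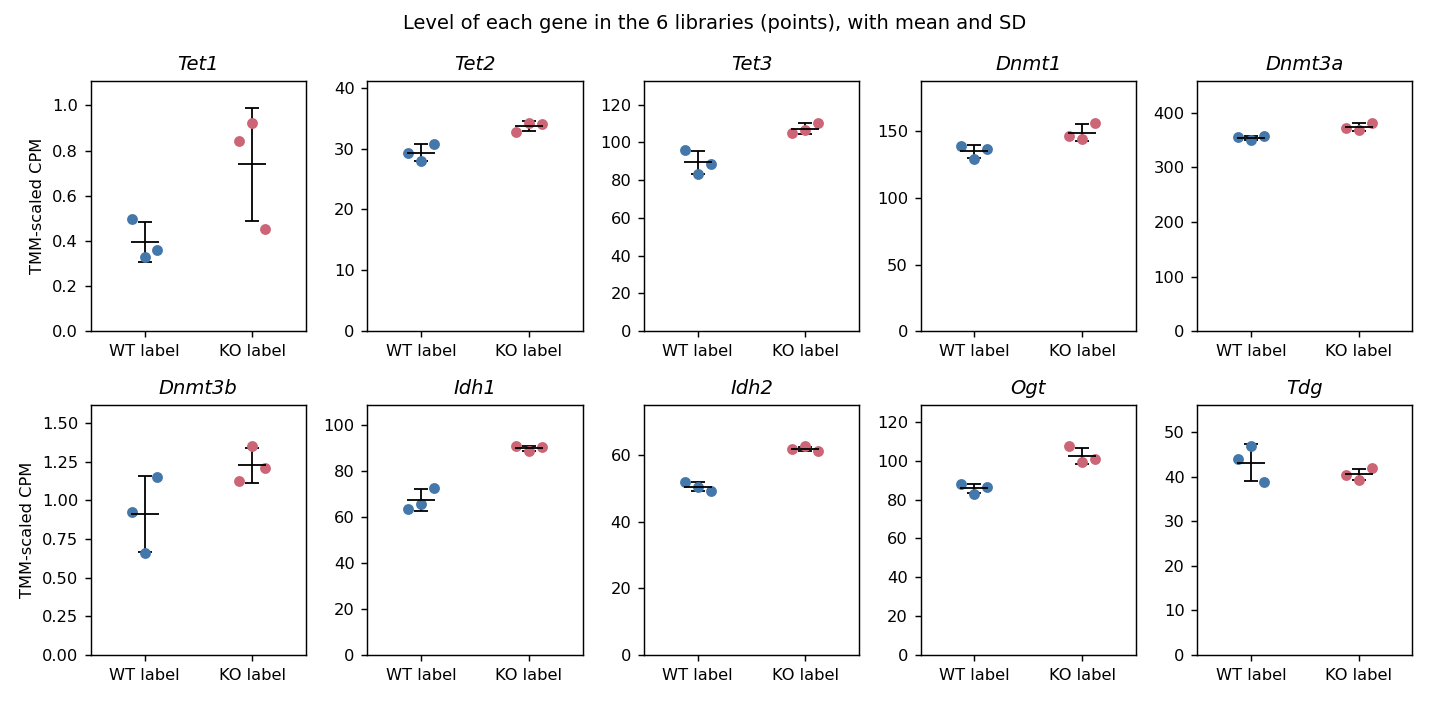
Level in TMM-scaled CPM (vertical axis from 0, a scale of its own per gene) of the 10 genes in the 3 libraries labelled wild-type (blue) and the 3 labelled Tet2 knockout (red); points are libraries, and the bar and whiskers are the mean and SD. The groups are apart for Tet2, Tet3, Dnmt1, Dnmt3a, Idh1, Idh2 and Ogt, and overlap for Tet1, Dnmt3b and Tdg.

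The gene named in the knockout label did not lose reads. Tet2 (ENSMUSG00000040943, mm10 chromosome 3, 133463679 to 133545139, minus strand), the labelled target, stood at 29.3, 27.9 and 30.7 CPM in wild-type replicates 1 to 3 and at 32.8, 34.2 and 34.1 CPM in knockout-labelled replicates 1 to 3. Each library labelled knockout was thus above each wild-type library. The log2 difference was 0.20 (SE 0.07, 95% interval 0.06 to 0.34; edgeR adjusted p = 0.0159), so the direction was opposite to a loss of the transcript, and the interval lies above 0. The call did not hold without knockout-labelled replicate 2 (adjusted p = 0.0553), without wild-type replicate 2 (0.0799), with DESeq2 (0.118), or with trends in GC content and length removed (log2 difference 0.073, adjusted p = 0.419). Counts over a whole gene say nothing of a deleted exon or an altered reading frame, and exon-level counts were not analysed here. The antisense gene Gm42567, which overlaps the 5′ end of Tet2 on the other strand, had no more than 3 reads in any library, against at least 338 for Tet2.

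Tet3 (ENSMUSG00000034832, chromosome 6, 83362373 to 83459084, minus strand), the family member known for oxidising the paternal genome in the zygote, was the most abundant of the family. It measured 95.9, 83.4 and 88.8 CPM in the wild-type libraries and 105, 107 and 110.4 CPM in those labelled knockout. All 3 libraries labelled knockout lay above the wild-type range, and the fitted difference was 0.26 on the log2 scale (SE 0.04; edgeR adjusted p = 2.18e-07). With GC and length trends removed the difference was 0.13 and still called (adjusted p = 0.00573). Noncoding genes inside the Tet3 span had at most 7 reads in a library.

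Tet1 (ENSMUSG00000047146, chromosome 10, 62804570 to 62908996, minus strand), the TET enzyme best known from embryonic stem cells, had few reads: 7, 4 and 5 reads in the wild-type libraries and 12, 13 and 6 in those labelled knockout. Knockout-labelled replicate 3 fell within the wild-type range, so the groups overlap. Summed over each group these are 16 reads (95% Poisson interval 9.15 to 26.0) and 31 reads (21.1 to 44.0), intervals that cover counting error only. Tet1 did not pass the filter, and a fit without the filter gave a log2 difference of 0.88 with a 95% interval from -0.16 to 1.95 (SE 0.54; edgeR adjusted p = 0.292). A difference in Tet1 was therefore not detected, with an interval that spans a small fall and a large rise.

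Per kilobase of gene, the scale on which different genes can be set side by side, Tet3 made up 75.2 ± 1.12% (SD, n = 3) of the summed TET level in the wild-type libraries and 75.9 ± 0.503% in those labelled knockout. The share of Tet2 was 23.1, 24.8 and 25.4% against 23.4, 23.9 and 23.3%, and the groups overlap. Tet1 held 0.358 ± 0.0610% and 0.567 ± 0.199%. The Tet3 to Tet2 ratio was 3.30, 3.02 and 2.92 in the wild-type libraries and 3.24, 3.15 and 3.28 in those labelled knockout. Thus the split of TET reads between the 3 genes overlapped between labels while the levels of Tet2 and Tet3 were both higher. Dividing instead by the longest protein-coding transcript, a choice made after the data were seen, gave Tet2 shares of 28.0 ± 1.28% and 27.1 ± 0.380%. Whether the differences of Tet2, Tet3 and Tet1 differ from one another was not tested.

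Tdg (ENSMUSG00000034674, chromosome 10, 82629828 to 82650799, plus strand), the glycosylase that removes formyl- and carboxylcytosine, was at 44.0, 46.8 and 38.7 CPM in the wild-type libraries and at 40.4, 39.3 and 41.9 CPM in those labelled knockout. The groups overlap, and the log2 difference of -0.09 (95% interval -0.21 to 0.04) was not called (edgeR adjusted p = 0.268). It passed only without wild-type replicate 3, the lowest of its group, with a difference of -0.17 (adjusted p = 0.0474). Its processed pseudogene Tdg-ps, which could share reads, had at most 7 in a library, and Glt8d2, which overlaps its 3′ end on the other strand, at most 10.

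**Figure D2:**
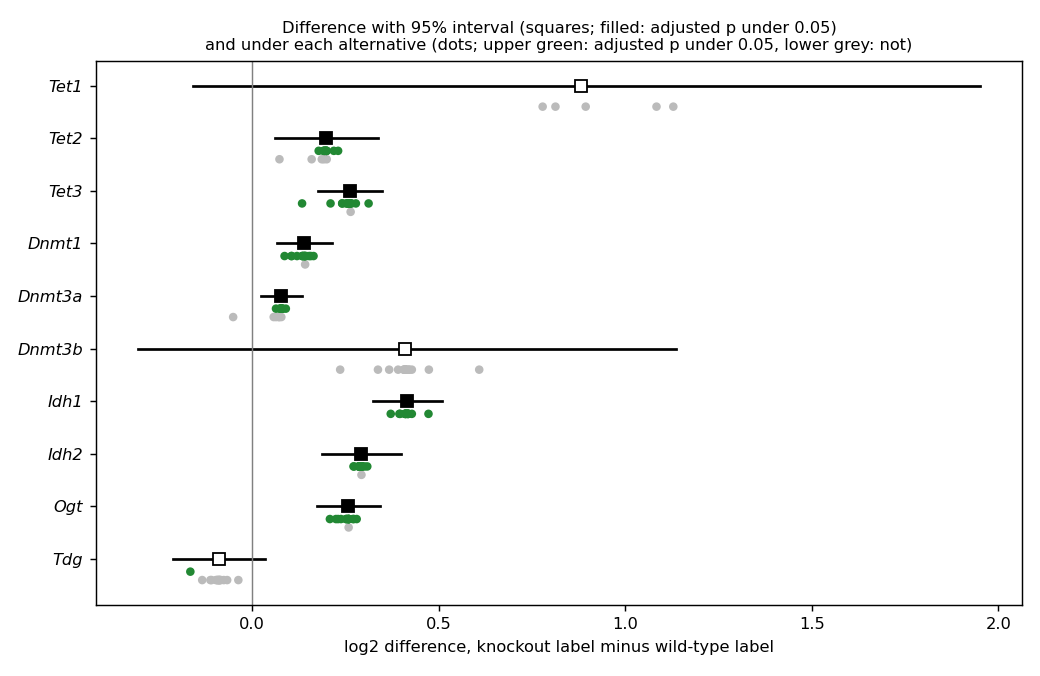
Log2 difference (knockout label minus wild-type label, horizontal axis) of the 10 genes with its 95% interval; filled squares passed an edgeR adjusted p of 0.05, and dots are the same difference under each alternative processing (green passed, grey did not). Tet1 is shown from the fit with no filter on low counts. Idh1 passed under every alternative shown, and Dnmt3a is the 1 gene with an alternative on the other side of 0.

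Among the writers of DNA methylation, Dnmt3a and Dnmt1 were abundant and slightly higher, and Dnmt3b had few reads. Dnmt3a (ENSMUSG00000020661, chromosome 12, 3806007 to 3914443, plus strand), the de novo methyltransferase that is itself often mutated in clonal hematopoiesis, read 355.1, 351 and 358 CPM in the wild-type libraries and 373, 368 and 382 CPM in those labelled knockout. The groups are apart, but the log2 difference was only 0.078 (SE 0.03; edgeR adjusted p = 0.0169). It was lost without knockout-labelled replicate 3 (adjusted p = 0.104), with DESeq2 (0.0727), with upper-quartile scaling (0.0884) and with no filter (0.0544), and changed sign to -0.051 (0.109) with GC and length trends removed. The antisense gene Dnmt3aos, which lies within Dnmt3a, rose from 5.71 ± 0.230 to 7.30 ± 0.169 CPM (SD, n = 3 each; log2 difference 0.35, edgeR adjusted p = 0.0467), a call lost in the fit with no filter (adjusted p = 0.0917). Reads of Dnmt3a and Dnmt3aos cannot be told apart without strand, although Dnmt3aos had 68 to 105 reads in a library against 4249 to 5313 for Dnmt3a.

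Dnmt1 (ENSMUSG00000004099, chromosome 9, 20907209 to 20959888, minus strand), the maintenance enzyme, was at 139, 129 and 137 CPM in the wild-type libraries and at 146, 144 and 156 CPM in those labelled knockout, with no overlap. The log2 difference of 0.14 (SE 0.04; edgeR adjusted p = 0.00125) became 0.09 with GC and length trends removed (adjusted p = 0.0436). Per kilobase, the Dnmt3a to Dnmt1 ratio was 1.166 ± 0.0336 in the wild-type libraries and 1.115 ± 0.0282 in those labelled knockout (SD, n = 3 each). These groups did not overlap, but the lowest wild-type and the highest knockout-labelled value both rounded to 1.134. Dnmt1 acts at replication forks, so genes of the cell cycle were read beside it. Of 18 tested S phase genes 9 rose, 1 fell and 8 were not called, and of 15 mitosis genes 9 rose, none fell and 6 were not called, where 40.9% of all tested genes were called. Mki67, a marker of cycling cells, rose from 101 ± 6.41 to 165 ± 3.07 CPM (SD, n = 3 each; log2 difference 0.70), and the replicative helicase gene Mcm6 from 101 ± 0.350 to 137 ± 4.14 CPM (0.44). Top2a, Ccnb2, Tpx2 and Mcm5 rose by 0.39, 0.66, 0.25 and 0.36, and the exception was Rrm2, a subunit of ribonucleotide reductase, which fell by 0.40 on the log2 scale. The summed S phase level ran from 957 to 982 CPM in the wild-type libraries and from 1105 to 1122 CPM in those labelled knockout. Its part in the Dnmt1 difference was not tested.

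Dnmt3b (ENSMUSG00000027478, chromosome 2, 153649450 to 153687730, plus strand), the other de novo enzyme, had 13, 8 and 16 reads in the wild-type libraries and 16, 19 and 16 in those labelled knockout. The groups overlap, and the log2 difference of 0.41 came with a 95% interval from -0.31 to 1.14 (edgeR adjusted p = 0.388). At this depth neither a modest fall nor a doubling was outside the interval. Dnmt3c, a rodent duplicate of Dnmt3b that is best known from male germ cells and could share its reads, had 2, 2 and 0 reads against 13, 7 and 10. It was named after its values were seen and did not pass the filter. The fit without the filter put it at 2.74 on the log2 scale (SE 0.76; edgeR adjusted p = 0.00152), a value that rests on few reads. The part of reads shared with Dnmt3b in it was not tested.

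Among the 9 tested genes the largest difference was in Idh1 (ENSMUSG00000025950, chromosome 1, 65158616 to 65186500, minus strand), the cytosolic NADP-dependent enzyme that turns isocitrate into 2-oxoglutarate. It stood at 63.7, 65.8 and 72.6 CPM in the wild-type libraries and at 90.8, 88.6 and 90.6 CPM in those labelled knockout. No library overlapped, and the log2 difference was 0.42 (SE 0.05; edgeR adjusted p = 4.46e-13). Over all alternatives it kept between 0.37 and 0.47, with an adjusted p of at most 0.00835, the value with an assumed spread of 0.1. Idh2 (ENSMUSG00000030541, chromosome 7, 80094846 to 80115392, minus strand), its mitochondrial counterpart, was at 51.7, 50.4 and 49.2 CPM against 61.8, 62.5 and 61.1 CPM. These groups did not overlap either (log2 difference 0.29, SE 0.05; edgeR adjusted p = 1.88e-06). The Idh1 to Idh2 ratio per kilobase, 1.25 ± 0.117 in the wild-type libraries and 1.36 ± 0.0316 in those labelled knockout (SD, n = 3 each), overlapped between labels.

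Ogt (ENSMUSG00000034160, X chromosome, 101640060 to 101684351, plus strand), the only enzyme that adds O-GlcNAc to nuclear and cytosolic proteins, was at 88.0, 83.1 and 86.3 CPM in the wild-type libraries and at 107, 99.6 and 101 CPM in those labelled knockout. Every library labelled knockout lay above every wild-type library (log2 difference 0.26, SE 0.04; edgeR adjusted p = 2.75e-07). Mgea5, the name in the table for Oga, the enzyme that removes the same sugar, moved the other way. It went from 167, 158 and 167 CPM to 138, 132 and 133 CPM, lower by a log2 difference of -0.29 (edgeR adjusted p = 3.15e-11; SE 0.04). Per kilobase, the Ogt to Mgea5 ratio was 0.328, 0.328 and 0.323 in the wild-type libraries and 0.486, 0.470 and 0.473 in those labelled knockout. This ratio does not depend on how libraries are scaled, and its groups did not overlap. It restates the Ogt and Mgea5 differences and gives no separate support for them. With an assumed spread of 0.1 neither gene was called (edgeR adjusted p = 0.153 for Ogt and 0.0953 for Mgea5). The size of the ratio depends on the lengths used: per kilobase of the longest protein-coding transcript the means were 0.491 and 0.717. Of the 9 tested genes that make or carry the sugar donor UDP-GlcNAc or salvage its parts, 1 rose and 3 fell, with a median of -0.11. These calls were 44.4% of the tested genes of the list, against 40.9% of all tested genes. Gfpt1, the rate-limiting step, rose from 140.3 ± 3.78 to 179 ± 3.95 CPM (log2 difference 0.35), while Uap1, which forms UDP-GlcNAc, Slc35a3, a Golgi transporter of it, and Gnpda1, which breaks glucosamine phosphate down, fell by 0.43, 0.34 and 0.11 on the log2 scale.

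**Figure D3:**
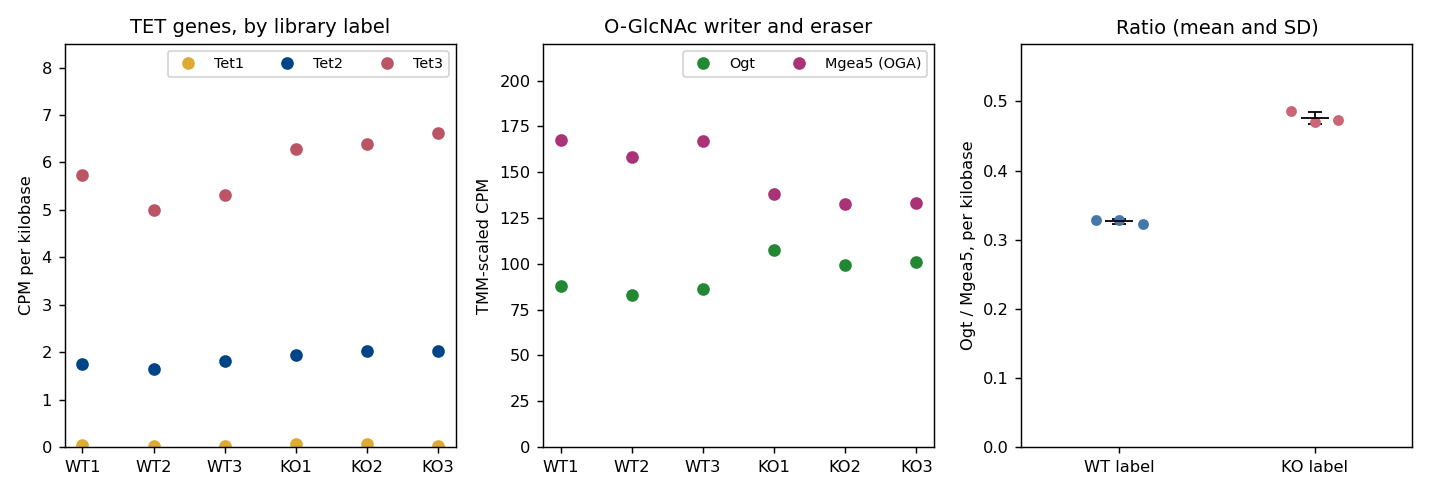
Left, level of Tet1, Tet2 and Tet3 in CPM per kilobase of gene in the 6 libraries by label; middle, TMM-scaled CPM of Ogt and of Mgea5 (OGA) in the same libraries; right, their ratio per kilobase, with mean and SD over 3 libraries. Tet3 lies above Tet2 and Tet2 above Tet1 in every library, and the ratio of Ogt to Mgea5 is near 0.326 in the wild-type libraries and near 0.476 in those labelled knockout, with the deposited gene lengths.

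By level per kilobase of gene, the order in the wild-type libraries was Idh1 (24.3 CPM per kilobase), Dnmt3a (21.3), Idh2 (19.5), Dnmt1 (18.3), Ogt (10.7), Tdg (8.03), Tet3 (5.35), Tet2 (1.74), Dnmt3b (0.179) and Tet1 (0.0256). Neighbours in that order did not overlap over the 3 libraries. In the libraries labelled knockout Idh2 (23.9) stood above Dnmt3a (22.5), and the other places were the same. The top of the order depends on the length used. Per kilobase of the longest protein-coding transcript Dnmt3a led in the wild-type libraries (36.6), and Idh1 (29.3) and Idh2 (28.9) overlapped. From Dnmt1 down the order was the same with both lengths and labels.

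Other genes of these pathways were read from 9 lists of 159 genes, of which 150 were tested. Of these 71 were called, 40 higher and 31 lower, where 40.9% of all tested genes were called. The lists were chosen with earlier results of these data known. The 40.9% covers all tested genes whatever their level and was not matched to the lists. The shares called per list are therefore descriptions, not tests. Partners and recruiters of TET proteins had 6 falls and 2 rises among 15 tested genes (53.3% called, median -0.08). With an assumed spread of 0.1, 1 of the 15 was called, where 14.3% of all tested genes were. Cebpa, a myeloid transcription factor, fell from 306 ± 1.96 to 203 ± 4.95 CPM (SD, n = 3 each; log2 difference -0.59), and Uhrf2, a reader of hydroxymethylcytosine, fell by 0.20 on the log2 scale, beside Mgea5 above. The rises were Hcfc1 (0.19), a chromatin protein that Ogt cleaves, and Hdac1 (0.21). Its relative Hdac2 was among the falls (-0.22). Spi1, which encodes PU.1, stood at 354 ± 8.93 and 368 ± 2.58 CPM and was not called (edgeR adjusted p = 0.0994). Nfkbiz, whose protein has been reported to bring TET2 to the Il6 gene, was not called either (log2 difference -0.10). Cxxc4, on the same chromosome as Tet2, whose protein binds CpG DNA, had 26 reads in all 6 libraries together and was not tested.

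In base excision and removal of modified cytosine 3 of 18 tested genes rose and 5 fell, with a median of 0.01. That is 44.4% called, where 40.9% of all tested genes were called. The cytidine deaminase genes Apobec3 (log2 difference 0.63) and Apobec1 (0.19) and the DNA damage sensor gene Parp1 (0.36) were higher. The 5 lower genes were Gadd45a (-0.46) and Gadd45g (-0.37), which have been linked to demethylation, and Apex1 (-0.40), Xrcc1 (-0.32) and Smug1 (-0.35) of the repair steps that follow or parallel Tdg. Mbd4, the other thymine glycosylase, was at 5.30 ± 1.23 and 5.38 ± 1.05 CPM and was not called. In upkeep of DNA methylation and methyl donors 5 of 17 rose and 4 fell (52.9% called). With an assumed spread of 0.1, 1 of these 17 was called, against 14.3% of all tested genes. Uhrf1, which brings Dnmt1 to replicated DNA, rose from 44.6 ± 1.67 to 50.4 ± 2.05 CPM (log2 difference 0.18; edgeR adjusted p = 0.00969), as did the replication clamp gene Pcna (0.32), Shmt2 (0.30) of the folate cycle, and Mtr (0.21), which remakes methionine. Trim28 (-0.22), the methionine adenosyltransferase gene Mat2a (-0.18), the remodeller gene Hells (-0.27) and Usp7 (-0.10) fell. Readers of CpG and methyl-CpG gave the fewest calls, 3 of 12: Zbtb38 (-0.26) and Kmt2b (-0.13) fell and Kdm2a (0.09) rose. Without wild-type replicate 2 the readers gave 4 falls and no rise, and without knockout-labelled replicate 3 they gave 1 call. Mbd1, Mbd2 and Mbd3 were not called.

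Supply and use of 2-oxoglutarate had 16 of 23 tested genes called, 12 higher and 4 lower, with a median of 0.13. That is 69.6% called, against 40.9% of all tested genes. Phgdh and Psat1, successive steps of serine synthesis of which the second releases 2-oxoglutarate, rose by 0.50 and 0.33 on the log2 scale, to 158 ± 3.13 and 156 ± 2.72 CPM (SD, n = 3 each) from wild-type means of 112 and 124 CPM. Bcat2, the mitochondrial transaminase of branched-chain amino acids, rose by 0.46, Idh3a by 0.20, Ogdh, which consumes 2-oxoglutarate, by 0.19 and its mitochondrial carrier Slc25a11 by 0.23. The falls included the cytosolic transaminases Bcat1 (-0.30) and Got1 (-0.22), and Dlst (-0.16), a subunit of the Ogdh complex. Among 14 genes for metabolites that inhibit 2-oxoglutarate enzymes 35.7% were called, below the share of all tested genes: 5 rose and none fell. They were Acod1 (1.22), which makes itaconate, D2hgdh (0.47), which clears D-2-hydroxyglutarate, Adhfe1 (0.90), a transhydrogenase that can form it, Mdh1 (0.24) and Sdha (0.08). Adhfe1 was low, at 1.61 ± 0.254 against 2.97 ± 0.646 CPM. Sdhb, Sdhc, Sdhd and Fh1 were not called. With an assumed spread of 0.1 (14.3% of all tested genes called), 4 genes of the supply list and 3 of the inhibitor list were called.

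Vitamin C and iron, the cofactors of TET enzymes, had 6 of 9 tested genes higher and 1 lower, with a median of 0.16. This was 77.8% called, against 40.9% of all tested genes. Slc23a2, the sodium-dependent vitamin C transporter, rose from 148, 152 and 153 CPM to 219, 213 and 213 CPM (log2 difference 0.51, SE 0.03; edgeR adjusted p = 3.18e-26), and its relative Slc23a1 had 16 reads in all. Tfrc, which imports iron, and Slc40a1, which exports it, rose by 0.49 and 0.56. The other rises were the glucose transporter genes Slc2a1 (0.16) and Slc2a3 (0.61) and the iron storage gene Fth1 (0.11). Slc11a1, the phagosomal metal transporter, was the 1 that fell, from 314 ± 8.93 to 161 ± 5.84 CPM (log2 difference -0.97). Of 33 other 2-oxoglutarate-dependent dioxygenases 5 rose and 6 fell, a share of 33.3% called, below that of all tested genes. Asph, Plod1 and P4ha1, which hydroxylate secreted and membrane proteins, rose by 0.61, 0.41 and 0.26, and P4ha2 fell by 0.26. Collagen is a substrate of Plod1, P4ha1 and P4ha2, and the collagen gene Col1a1, among the connective tissue markers, was at 3453 ± 163 CPM in the wild-type libraries and 3195 ± 44.0 CPM in those labelled knockout (SD, n = 3 each). Egln3, a hypoxia-induced prolyl hydroxylase of HIF, rose by 0.29, while Egln1 was at 80.3 ± 0.567 and 79.7 ± 2.83 CPM. This count was sensitive to single libraries, at 7 genes without knockout-labelled replicate 1 or without wild-type replicate 3.

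**Figure D4:**
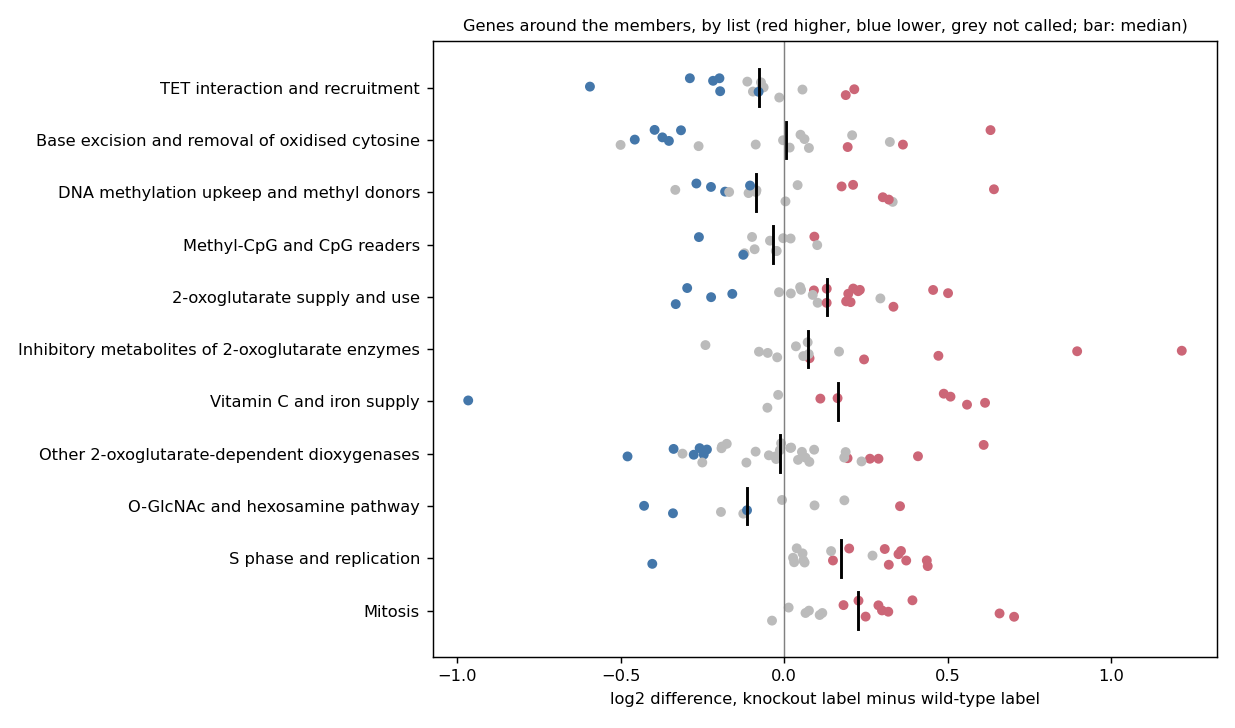
Log2 difference (knockout label minus wild-type label, horizontal axis) of each tested gene of the 9 pathway lists and of the S phase and mitosis lists (rows); red points were called higher, blue called lower, grey not called, and the black bar is the median of the row. Medians run from -0.11 in the O-GlcNAc and hexosamine list to 0.23 in the mitosis list.

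Over the 6 libraries the profile of Tet2, as log2 CPM centred on its mean, was nearest to those of Unc5c, Ints9, Cstf2, Rnf139 and Kmt2d among 8788 other protein-coding genes with a mean of at least 10 CPM. Their root-mean-square differences from Tet2 were 0.0132 to 0.0177 on the log2 scale. Unc5c, on the same chromosome as Tet2, was at 17.6, 16.5 and 18.6 CPM in the wild-type libraries and at 19.4, 20.6 and 20.4 CPM in those labelled knockout. It was itself not called (edgeR adjusted p = 0.0761). With 6 libraries in 2 groups, such likeness describes a shared small step between labels and a similar order within them. Kmt2d departed from that order, with its highest value in knockout-labelled replicate 3 where Tet2 had its own in replicate 2.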

How the data were processed

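RNA was extracted on Qiagen RNeasy Plus columns and libraries were made with a NEBNext Ultra RNA kit, per the labels' protocols. The submitters' processing notes name fastp, STAR, featureCounts and build mm10; versions and the strand setting of the counting are not given in the sources used here. The deposited values are raw read counts per gene. Nothing in the labels says that the kit preserved strand.

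Counts were fitted across all genes in R 4.3.3 with edgeR 4.0.16: filterByExpr (minimum count 10), TMM scaling, robust quasi-likelihood test with the genotype label as the only term, Benjamini-Hochberg adjustment over all 13175 tested genes, threshold 0.05. The test was tried on simulated data. Since 3 libraries against 3 allow no exact permutation p under 0.1, ratios were described without a test. Per-kilobase levels use the gene length in the deposited table. Oga was matched as Mgea5 through RefSeq synonyms.

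The members and lists were chosen with earlier results of these data known. Genes named are the 10 members, the genes overlapping them, of each list the 4 called genes with the smallest p (all where 5 or fewer were called), and the 5 nearest profiles to Tet2; any other gene named was chosen after its values were seen. Some list members covered by this rule are not reported here. Alternatives changed the tool (DESeq2 1.42.0; limma-voom in limma 3.58.1), the scaling (upper-quartile; RLE), the filter (none; 1 CPM or more in 3 libraries; only protein-coding genes), the libraries (leaving out 1 at a time) and the model (a replicate block; an assumed spread, as a biological coefficient of variation of 0.1; removal of GC and length trends). The GC trend used GENCODE M21 transcripts, and 99.9% of tested genes had a GC value. The length trend used the deposited gene length. Figures were drawn with matplotlib 3.10.9 in Python 3.11.15.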

Additional observations from a re-analysis of the deposited data

How the results depend on the processing

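Each difference was refitted under 16 alternatives, 5 for Tet1. In the fits run for each, Tet1, Dnmt3b and Idh1 kept their direction and their side of the threshold in all of them, as did Tet3, Dnmt1, Idh2 and Ogt except with the assumed spread of 0.1. There the log2 differences were 0.26 for Tet3 (edgeR adjusted p = 0.141), 0.14 for Dnmt1 (0.504), 0.29 for Idh2 (0.104), 0.26 for Ogt (0.153), 0.20 for Tet2 (0.350) and 0.078 for Dnmt3a (0.747). Tet2 also lost its call with DESeq2 (0.19) and with GC and length trends removed (0.073). Dnmt3a lost it with DESeq2 (0.071), upper-quartile scaling (0.058) and no filter (0.073), and reversed with the trends removed (-0.051). The cause was not tested. With single libraries left out, Tet2 ran from 0.16 to 0.23, Dnmt3a from 0.064 to 0.090 and Tdg from -0.17 to -0.037.

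With the assumed spread, 1885 genes were called against 5385, with 1222 against 2852 higher and 663 against 2533 lower, and 1 of the 10 members against 7. The pathway lists then gave 25 calls against 71, 16 against 40 higher and 9 against 31 lower. By list these were 5 each in base excision and in vitamin C and iron, and 4 in supply of 2-oxoglutarate. The inhibitor, other dioxygenase and O-GlcNAc lists had 3 each, the TET partner and methylation upkeep lists 1 each, and the readers 0. DESeq2 called 1651 genes lower. The share of calls that were higher was 53.0%, 47.4% with upper-quartile scaling and 44.1% with the trends removed.

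Same-numbered libraries did not deviate together (correlations 0.0040, -0.0061 and -0.014). Variance within a group was only 1.56 to 2.30 times that of sampling noise. These correlations therefore cannot show whether such libraries share more than a number. With the replicate block 5259 genes were called, and the same 7 members. Tet1 and Dnmt3b had at most 19 reads in a library, and their intervals are the widest of the 10 genes.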
